A study of Mus musculus with 15 samples.

Results

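Epithelial cells of the ileum from adult control mice were compared with epithelial cells of the ileum from adult wild-type CD1 mice, CD1 being an outbred laboratory stock. The members were chosen by title: the 3 arrays titled as control ileum and the 3 arrays titled as ileum alone, which are 6 of the 15 arrays of the series. Transcript levels were read on Affymetrix Mouse Gene 1.0 arrays, after the same RNeasy extraction and the same biotin labelling in all groups. The other groups, each with 3 arrays, were wild-type CD1 jejunum, ileum of adult mice with a conditional Gata4 knockin (cKI) and jejunum of adult mice with a conditional Gata4 knockout (cKO). The control mice carry no named change of Gata4 in the labels, and their strain, alleles and any Cre transgene are not given in the sources used here, nor are the promoter behind the cKI or cKO, the sex of the mice, the number of mice behind an array or the scan dates. Strain, colony and any separate handling of the 2 sets of arrays therefore cannot be told apart from the group in this comparison. Separate animals behind the arrays of a group are not stated in the labels, so a p-value here reflects no more than the spread among these arrays, which may be technical.

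The small intestinal epithelium is renewed from crypts and holds absorptive enterocytes beside goblet, Paneth, enteroendocrine and tuft cells. Its gene expression changes from the proximal to the distal end: the jejunum leads in the uptake of fat and sugar, and the ileum in the recovery of bile acids and cobalamin. GATA4, a zinc finger transcription factor, is known to be high in duodenum and jejunum and low toward the ileum. Small nucleolar RNAs (snoRNAs) guide the chemical modification of ribosomal RNA and are mostly cut from introns of other genes, many of which encode ribosomal proteins.

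The 2 ileum groups differed in many genes, and the differences were led by small RNAs. Levels are the deposited log2 values, a group mean carries the SD of n = 3 arrays, and a difference is control minus wild-type ileum with its standard error from limma. A gene was called at an adjusted p under 0.05 (limma, Benjamini-Hochberg over all genes tested). Of 11784 genes tested, 2275 were higher and 1015 lower in control ileum, which together is 27.9% (19.3% higher and 8.61% lower). At least 2-fold changes were found in 277 genes that were higher (2.35%) and 107 that were lower (0.908%). The arrays of the groups did not overlap in 5278 genes (44.8%). The median difference over all genes tested was 0.08, and 69.1% of the calls were higher. After quantile normalization the median was -0.02 and 47.9% of the calls were higher, so the balance of directions depends on the scaling. No called gene named below changed direction under any alternative tried.

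Array medians lay between 4.94 and 5.0 in control and between 4.89 and 4.92 in wild-type ileum. No arrays were identical, and across genes, which are not independent replicates, arrays correlated by 0.9729 to 0.9833 within the control group, 0.9775 to 0.9855 within the wild-type group and 0.9227 to 0.9559 between them. Epithelial and ileal markers were high in every array of both groups. Vil1, an actin bundler of the brush border, was at 11.51 ± 0.06 in control and 11.56 ± 0.26 in wild-type ileum, and Fabp6, the ileal bile acid binding protein, at 12.44 ± 0.11 and 12.68 ± 0.16. Epcam, Cdh17, Krt20 and Lgals4 were not called either, though Lgals4 was without control ileum replicate 2 (adjusted p = 0.0336). The enterocyte list had 3 of 19 members higher (15.8%, beside 19.3% over all genes) and 0 lower. Xist, transcribed from the inactive X chromosome of females, was below the filter, at 2.83 to 2.91 in control and 2.68 to 3.04 in wild-type arrays.

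**Figure D1:**
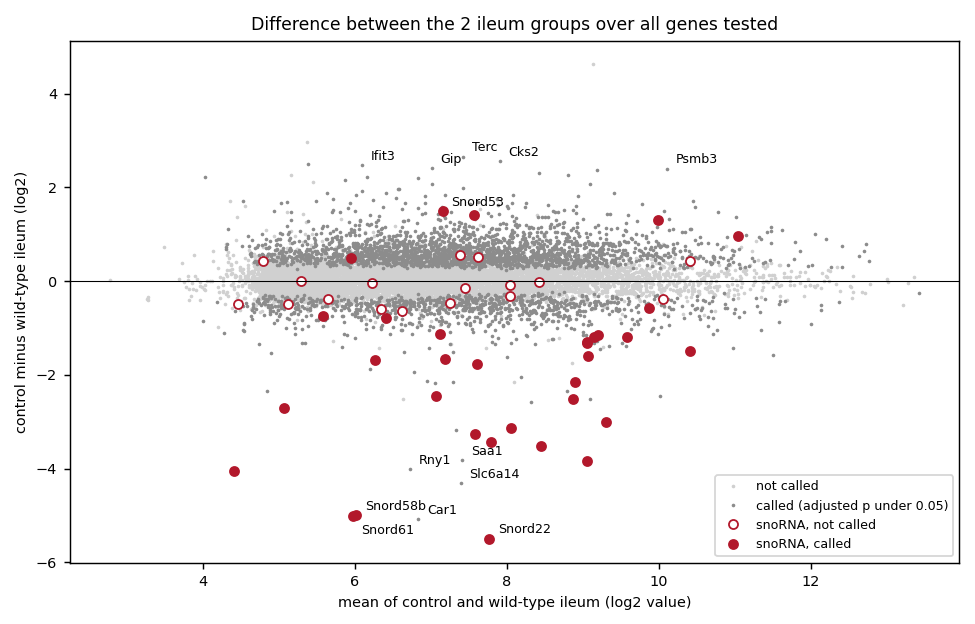
Difference between control and wild-type ileum (log2) against the mean of both groups (log2 value) for each gene tested. Grey points are genes, darker where called, and red circles are snoRNAs, filled where called. Snord22, at -5.50, is the lowest point, and 28 of the 50 snoRNAs tested lie lower in control ileum.

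Small RNAs gave the largest falls. Snord22, a C/D box snoRNA, was at 5.21, 4.62 and 5.24 in the control arrays and at 10.64, 10.20 and 10.72 in the wild-type arrays, a difference of -5.50 ± 0.199 (45.2-fold lower, adjusted p = 6.13e-10). Snord61 was at 3.19, 3.39 and 3.82 against 8.55, 8.21 and 8.68 (-5.01 ± 0.261, adjusted p = 1.06e-08). Snord16a read 7.09, 6.98 and 7.37 against 11.12, 10.61 and 11.19 (-3.83 ± 0.165, 14.2-fold lower, adjusted p = 1.57e-09). In all 3 every control array lay far below every wild-type array, with no overlap. The difference was -4.99 for Snord58b, -4.04 for Snord38a, -3.51 for Snord55, -3.43 for Snord49a, -3.26 for Snord42a, -3.13 for Snord87 and -3.01 for Snord33. No fold is given for Snord61, Snord58b and Snord38a, since their control level lay below the filter.

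Of 50 snoRNAs tested, 28 were lower, 5 were higher and 17 were not called, beside 8.61% lower and 19.3% higher over all genes tested. The C/D box family had 20 of 29 lower and 2 higher, with a median difference of -1.76. In the H/ACA box family, which guides pseudouridylation, 7 of 17 were lower and 3 higher, with a median of -0.49, and 0 of the 3 Cajal body RNAs tested were called. The members that went the other way were Snord53, at 7.37, 7.97 and 8.36 against 6.22, 6.32 and 6.69 (1.49 ± 0.282), Snora7a (1.42), Snord57 (1.31), Snora52 (0.96) and Snora69 (0.49). Snora69 was no longer called after control ileum replicate 1, 2 or 3 was left out (adjusted p = 0.0624, 0.0621 and 0.0875), nor after wild-type ileum replicate 1 or 2 (adjusted p = 0.104 and 0.0774). The RefSeq transcripts of the snoRNAs that were lower span 45 to 205 nucleotides (median 86.5), those of the higher ones 63 to 134 (median 122) and those not called 53 to 275 (median 107).

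Other short structural RNAs were lower as well. Rny1, a Y RNA that binds the Ro60 protein, was at 4.93, 4.44 and 4.79 in control and 8.59, 8.62 and 9.01 in wild-type arrays (-4.02 ± 0.21, adjusted p = 1.06e-08). The 5S ribosomal RNA gene n-R5s136 differed by -2.52 ± 0.198, the U3 RNA Rnu3a by -1.88 ± 0.277 and Rmrp, the RNA of the RNase MRP complex, by -1.57 ± 0.168. Together with the snoRNAs, the list of small nucleolar and other small structural RNAs had 29 of 53 members lower and 6 higher. Over the microRNA genes, which the array reads at their hairpin and not as mature strands, 8 of 70 were lower (11.4%, beside 8.61% over all genes) and 5 higher (7.14%, beside 19.3%). Mir6516 was at 5.63, 5.60 and 6.01 against 9.01, 8.91 and 8.84 (-3.17 ± 0.161, 9.02-fold lower, adjusted p = 9.5e-09). Mir139 was lower by a smaller step (-1.09 ± 0.154) and Mir505 higher (1.43 ± 0.197).

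The snoRNA changes were not shared by most of the genes that contain them, as far as the clusters read for these genes show. In RefSeq, 27 of the snoRNAs tested lie inside 24 other genes that were tested. Of these snoRNAs 16 were lower and 3 higher, while 5 of the containing genes were lower, 1 was higher and 18 were not called. The median difference was -0.78 for the snoRNAs and -0.11 for the containing genes. Snord61 lies in Rbmx, which encodes an RNA-binding protein and was at 8.20 ± 0.18 in control and 8.05 ± 0.16 in wild-type ileum. Snord73a fell by 2.70, and its gene Rps3a1, of the small ribosomal subunit, was at 9.78 ± 0.10 and 9.67 ± 0.50. Gas5, a noncoding gene whose introns hold many snoRNAs, had the largest fall of the containing genes, at 8.67, 8.84 and 8.89 against 11.25, 11.14 and 11.34 (-2.44 ± 0.123, 5.44-fold lower, adjusted p = 9.5e-09), beside -2.16 for its Snord47. Rpl4, Rpl23a and Rpsa were lower by smaller steps than the snoRNAs in them (-0.58, -0.58 and -0.77, beside -3.83 for Snord16a, -3.26 for Snord42a and -1.68 for Snora62), though Rpl23a was not called with the mean of all its clusters (adjusted p = 0.135). Among the containing genes that were called, Rps12 has 14 clusters on the array, Rpl23a 13, Rpsa 5 and Tpt1 4. Only the cluster with the highest mean was read, and it may lie at a copy elsewhere in the genome. For such genes the value may not be that of the containing gene, and the counts above carry this limit. The place of a cluster in the genome was not checked, so genes with 1 cluster, such as Rps3a1, carry this limit too. Signal from an intron and from the mature snoRNA cannot be told apart on the array.

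**Figure D2:**
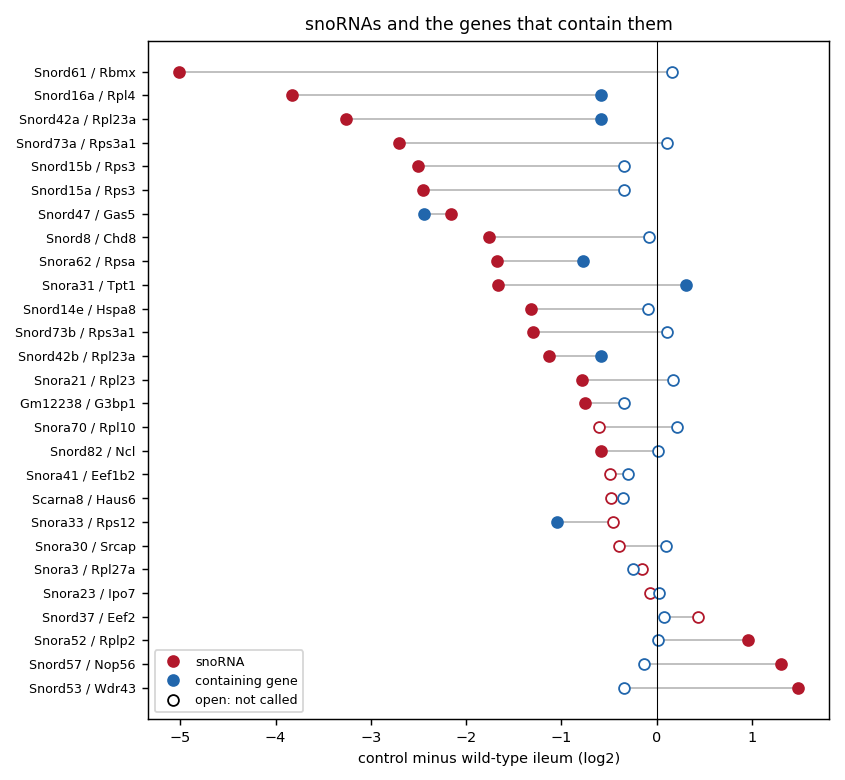
Control minus wild-type ileum (log2) for 27 snoRNAs (red) and the gene that contains each (blue), joined by a line, with open circles where not called. In 20 of the 27 lines the snoRNA lies left of its gene, and most genes lie near 0. Each gene was read at its cluster with the highest mean.

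Terc and Cks2 stood at the head of the rises. Terc, the RNA template of telomerase, was at 8.75, 8.73 and 8.80 in control and 6.0, 6.06 and 6.24 in wild-type arrays, a difference of 2.66 ± 0.104 (6.31-fold higher, adjusted p = 9.79e-10). Cks2, a cyclin-dependent kinase subunit, was at 9.24, 8.99 and 9.33 against 6.26, 6.85 and 6.78 (2.56 ± 0.168, 5.88-fold higher, adjusted p = 1.48e-07). For these genes, as for Snord22, Snord61 and Snord16a, no array of either group came near the other group. Psmb3, a subunit of the proteasome core, read 11.35, 11.13 and 11.44 against 8.80, 8.94 and 8.98 (2.40 ± 0.121, 5.28-fold higher, adjusted p = 9.5e-09). Gabarapl2, an ATG8 protein of autophagy, was higher by 2.36 and Psmb5, another core subunit, by 2.07. Cks2 has 3 transcript clusters on the array, and Psmb3 and Gabarapl2 have 2 each. Only the cluster with the highest mean was read. It may lie at a copy elsewhere in the genome, which was not checked.

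Such genes split the 5 groups into the same 2 sets. In 25 genes that were higher and 21 that were lower, every array of control and cKI ileum lay more than 1 log2 unit from every array of wild-type ileum, wild-type jejunum and cKO jejunum. They were picked by this split out of the 11784 genes tested. Other divisions of the groups were not counted in this way, so the counts are a description. Terc was at 9.20 ± 0.12 in cKI ileum, but at 6.34 ± 0.11 in wild-type jejunum and 6.38 ± 0.11 in cKO jejunum. Snord22 was at 5.13 ± 0.36 in cKI ileum, 10.53 ± 0.05 in wild-type jejunum and 10.63 ± 0.18 in cKO jejunum. The genes that were lower in this way included 14 snoRNAs beside Rny1, Mir6516, n-R5s136 and Gas5, with Micos10, of the mitochondrial contact site complex (-2.35 ± 0.169), and Cox17, a copper chaperone of cytochrome oxidase (-2.15 ± 0.165), among the 3 that encode proteins. Of the higher ones 21 encode proteins, such as Ndufb11 (1.81 ± 0.112) and Ndufs7 (1.58 ± 0.11) of respiratory complex I, Phf5a of the splicing machinery (1.68 ± 0.152), Zfp706 (1.72 ± 0.114) and Kti12 (1.76 ± 0.198). Ndufb11 and Zfp706 have 2 clusters each and Gas5 has 4. Each was read at the cluster with the highest mean, which may lie at a copy elsewhere in the genome. Whether the 2 sets of groups were also processed apart is not given in the sources used here, and group and processing cannot be told apart.

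**Figure D3:**
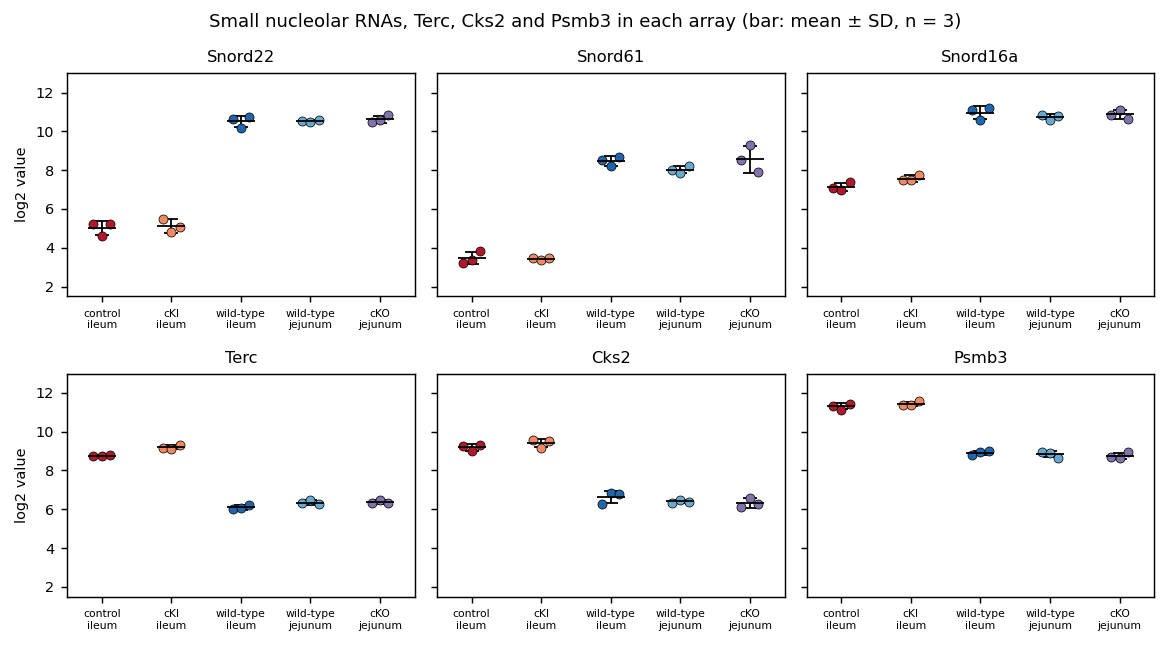
Log2 values of 6 transcripts in each array of the 5 groups, with bars for the mean ± SD (n = 3). Control and cKI ileum lie together and apart from the other groups in each panel, low for Snord22, Snord61 and Snord16a and high for Terc, Cks2 and Psmb3.

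The pattern was common among the larger changes. Of the 277 genes at least 2-fold higher in control ileum, the cKI ileum mean lay nearer to control than to wild-type ileum in 242 (87.4%), the wild-type jejunum mean in 72 (26.0%) and the cKO jejunum mean in 57 (20.6%). In 176 (63.5%) cKI ileum sided with control while both jejunum groups sided with wild-type ileum. Among the 107 genes at least 2-fold lower, cKI ileum was nearer to control in 104 (97.2%), and in 75 (70.1%) both jejunum groups lay nearer to wild-type ileum. These counts are a description, since the control and wild-type ileum means enter both the choice of genes and the distances.

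Car1, Slc6a14 and Saa1 were the largest falls among genes that encode proteins, and they were singled out with their values known. Car1, the carbonic anhydrase of the colon epithelium, was at 4.5, 4.39 and 3.98 in control and 10.26, 9.53 and 8.34 in wild-type arrays (-5.09 ± 0.34, adjusted p = 1.64e-07). Slc6a14, an amino acid transporter, was at 7.53, 3.05 and 5.13 against 9.38, 9.68 and 9.58 (-4.31 ± 0.711, 19.9-fold lower, adjusted p = 0.000523), and Saa1, an acute phase protein made by distal epithelium, at 6.82, 2.84 and 6.86 against 8.78, 9.51 and 9.68 (-3.82 ± 0.869, 14.1-fold lower, adjusted p = 0.00486). The wild-type arrays were all high, whereas the control arrays of Slc6a14 and Saa1 were spread widely, with replicate 2 the lowest in both. Unlike the snoRNAs, these genes were also low in wild-type jejunum, where Car1 was at 4.06 ± 0.25 and Slc6a14 at 2.99 ± 0.11. In cKO jejunum Slc6a14 was at 9.07 ± 0.57 and Car1 at 4.76 ± 0.32. The Car1 mean passed the filter in wild-type ileum alone, so Car1 could only be called lower. St6galnac6, a sialyltransferase, was lower by 2.05 ± 0.403 and Mptx1, a mucosal pentraxin, by 1.61 ± 0.31. In the list of genes known from the distal intestine and colon, 1 of 16 tested members, Car1, was lower (6.25%, beside 8.61% over all genes) and 2 were higher (12.5%, beside 19.3%). The higher ones were Sst, the somatostatin gene (1.17 ± 0.243), and Slc26a3, a chloride exchanger (0.41 ± 0.13), which was not called when any array other than control ileum replicate 3 was left out (adjusted p of 0.0626 to 0.0957). Slc6a14, Saa1, St6galnac6 and Mptx1 are not in that list.

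Genes of the Hoxb cluster, which mark position along the body axis, were lower in control ileum. Hoxb9 was at 6.08, 5.08 and 6.54 in control and 7.30, 7.71 and 7.21 in wild-type arrays (-1.50 ± 0.26, 2.83-fold lower, adjusted p = 0.00075). Hoxb6 was lower by 1.14 ± 0.163, Hoxb7 by 0.99 ± 0.166 and Hoxb5 by 0.95 ± 0.231, and of 10 Hox genes tested these 4 were lower (40.0%, beside 8.61% over all genes) and 0 higher, 0 also at an unadjusted p under 0.05 in the limma fit. Of the 37 Hox genes on the array only these 10 passed the filter. The Hoxb7 mean passed it in wild-type ileum alone, so Hoxb7 could only be called lower. The share of 40.0% thus depends in part on the filter. In wild-type jejunum Hoxb9 was at 5.0 ± 0.13 and Hoxb5 at 3.56 ± 0.02. Mir196a-1, the microRNA gene of the same cluster, was at 3.45, 3.74 and 3.86 in control and 5.99, 6.16 and 5.91 in wild-type arrays (-2.34 ± 0.153, adjusted p = 1.48e-07), with every control array below every wild-type array. Its mean passed the filter in wild-type ileum alone and lay between 3.04 and 3.90 in the other groups, so it could only be called lower. Its hairpin lies at chr11:96265164-96265265 on the plus strand of RefSeq's GRCm38.p6. The mature strands of this gene and of Mir6516, the 2 microRNA genes with the largest falls, are shown with the seed (bases 2 to 8) in capitals, since the seed fixes which messages a microRNA can pair with, and no seed is shared between them:
mmu-miR-196a-5p: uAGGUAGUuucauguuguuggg
mmu-miR-196a-1-3p: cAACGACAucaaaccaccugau
mmu-miR-6516-5p: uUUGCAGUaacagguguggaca
mmu-miR-6516-3p: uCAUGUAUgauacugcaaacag

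The place of the larger changes along the genome was also counted. When the tested genes were ordered along the RefSeq annotation, 16.8% of the 107 had a neighbour that was also lower by at least 2-fold, beside 1.80% of all genes. For genes at least 2-fold higher the shares were 6.86% and 4.64%. These shares carry no test, and the lower genes include snoRNAs in or beside other lower genes, such as Snord47 in Gas5, and Snord15a and Snord15b, which both lie in Rps3.

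**Figure D4:**
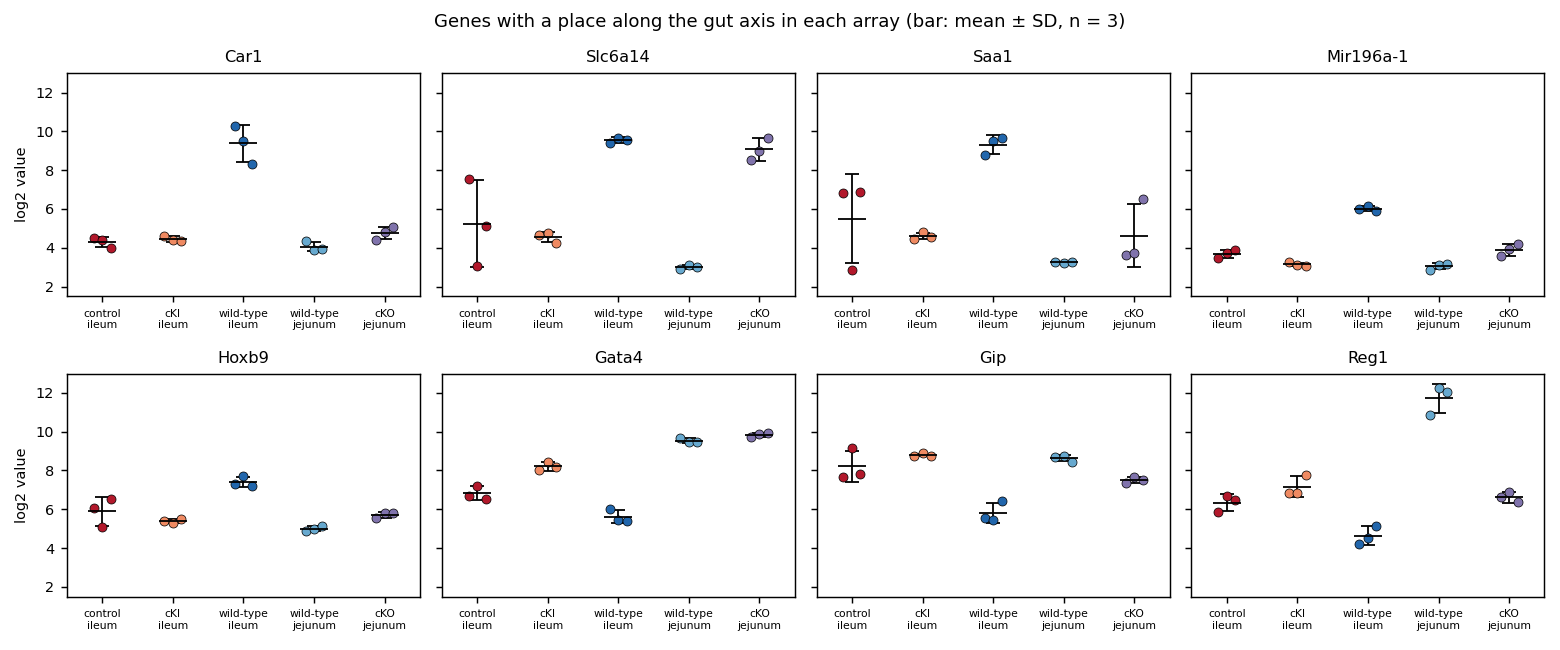
Log2 values of 8 genes in each array of the 5 groups, with bars for the mean ± SD (n = 3). The mean of Car1, Mir196a-1 and Hoxb9 is highest in wild-type ileum, and that of Gata4, Gip and Reg1 is lowest there.

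Several genes known from the proximal intestine were higher in control ileum, while most of the jejunal list was not called. Gip, the incretin hormone of K cells in the proximal gut, was at 7.67, 9.15 and 7.83 in control and 5.57, 5.43 and 6.41 in wild-type arrays (2.41 ± 0.311, 5.32-fold higher, adjusted p = 8.8e-05). Enpp7, the alkaline sphingomyelinase, read 7.78, 8.11 and 7.92 against 6.46, 4.89 and 5.87 (2.20 ± 0.534, 4.58-fold higher, adjusted p = 0.00723). Dgat1, which makes triglycerides in enterocytes, read 10.92, 10.85 and 10.68 against 9.48, 9.11 and 9.40 (1.49 ± 0.145, 2.8-fold higher, adjusted p = 8.33e-06). No control array of the 3 genes overlapped a wild-type array. Of 31 tested genes of jejunal digestion and fat handling 8 were higher, 0 lower and 23 not called. The share of 25.8% compares with 19.3% over all genes. Gip, Enpp7 and Reg1 stand in other lists. Reg1, which encodes a secreted lectin, was higher by 1.72, Rdh7, a retinol dehydrogenase, by 1.93, Fbp1, of gluconeogenesis, by 0.91 and Mogat2, of triglyceride resynthesis, by 0.77. In wild-type jejunum Reg1 was at 11.73 ± 0.75, against 6.35 ± 0.44 in control ileum. Fabp1 and Lct, jejunal enterocyte genes, were not called, at 5.14 ± 0.95 and 5.99 ± 0.83 in control and 3.76 ± 0.27 and 4.72 ± 0.11 in wild-type ileum. In the fit of the 6 arrays alone both were called higher (adjusted p = 0.0419 and 0.0324), as were Fabp1 with array weights (adjusted p = 0.0224) and Lct with the replicate block (adjusted p = 0.0291).

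Gata4 itself was higher in control ileum. It was at 6.71, 7.22 and 6.53 in control and 5.99, 5.43 and 5.39 in wild-type arrays, a difference of 1.22 ± 0.185 (2.33-fold higher, adjusted p = 0.000284), with no overlap. The level lay between wild-type ileum and the cKI ileum, where it was at 8.21 ± 0.21, and below wild-type jejunum at 9.53 ± 0.13. Gata6, a related factor of crypts and villi, was higher by 0.56 ± 0.0997, and Gata5 was at 9.30 ± 0.12 against 9.0 ± 0.28 and was not called. Of 21 GATA and intestinal transcription factors 4 were higher (19.0%, beside 19.3% over all genes), and 2 without control ileum replicate 3 or wild-type ileum replicate 2. Foxa1, a forkhead factor, was the member that was lower (-0.59 ± 0.122).

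The bile acid genes of the ileum moved in both directions. Slc10a2, the apical bile acid transporter, was at 10.44, 9.89 and 10.12 in control and 11.56, 11.04 and 11.21 in wild-type arrays (-1.12 ± 0.291, 2.17-fold lower, adjusted p = 0.0105). Nr1h4, the bile acid receptor FXR, was lower by 0.69 ± 0.159. The 2 subunits of the basolateral bile acid exporter went opposite ways: Slc51a was higher (0.67 ± 0.187, adjusted p = 0.0154) and Slc51b lower (-0.65 ± 0.223, adjusted p = 0.0406). Slc51a was not called without control ileum replicate 2 (adjusted p = 0.0635) or wild-type ileum replicate 2 (adjusted p = 0.0757). Slc51b was not called when any array other than control ileum replicate 1 was left out (adjusted p of 0.053 to 0.15). Fabp6 was not called (-0.24 ± 0.24), nor was Fgf15, the hormone that FXR induces, which was spread from 6.56 to 8.16 in control and from 5.91 to 8.28 in wild-type arrays. In the list of ileal genes and bile acid recovery 4 of 20 were higher and 3 lower, beside 19.3% higher and 8.61% lower over all genes. The share higher was thus close to that over all genes, and the share lower rests on 3 genes. Only 1 was higher without control ileum replicate 2 or wild-type ileum replicate 2, and 2 without control ileum replicate 1 or wild-type ileum replicate 3. Enpp7, described above, was a higher member of this list.

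Enteroendocrine genes were higher and none was lower. Of 19 tested, 7 were higher (36.8%, beside 19.3% over all genes). After Gip, the largest was Nts, neurotensin, a peptide of distal endocrine cells (1.57 ± 0.266). Others were Cck, the hormone of I cells, at 6.07, 6.34 and 6.08 against 5.10, 4.79 and 5.10 (1.17 ± 0.197, 2.24-fold higher, adjusted p = 0.000619), the somatostatin gene Sst (1.17 ± 0.243) and Insm1, a transcription factor of endocrine cells (0.75 ± 0.152). Pyy and Gcg, peptides of distal L cells, were not called, with differences of 0.57 ± 0.267 and 0.76 ± 0.285, though Gcg was without control ileum replicate 3 (adjusted p = 0.0295). In bulk samples fewer cells of a type and less RNA per cell cannot be told apart, here and for every cell type below.

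Some crypt genes were higher in control ileum. In the proliferation and cell cycle list 13 of 47 were higher (27.7%, beside 19.3% over all genes) and 1 was lower (2.13%, beside 8.61%). Of the 47 differences 38 were above 0, beside 7068 of 11784 over all genes. The count of higher members was 7 after quantile normalization and 6 with arrays centred on their medians. It was 7 without control ileum replicate 1 and 5 without control ileum replicate 3 or wild-type ileum replicate 1. The members that held in all of these were Cks2, Cdk1, the mitotic kinase, at 8.22, 7.63 and 8.10 against 6.71, 6.95 and 7.18 (1.04 ± 0.206), Ube2c, of the anaphase promoting complex (0.88 ± 0.156), Aurkb (0.86 ± 0.219) and Ccne1 (0.65 ± 0.138). Mki67 and Top2a, both high in dividing cells, were not called, at 9.53 ± 0.17 against 9.78 ± 0.21 and 8.88 ± 0.21 against 8.95 ± 0.29. With the mean of all clusters of a symbol, Top2a was called lower (-0.88, adjusted p = 0.0032). Hmgb2, a chromatin protein of crypts, went the other way (-1.03 ± 0.177). Hmgb2 has 4 clusters and Cks2 has 3, and each was read at the cluster with the highest mean. Of 27 genes of crypt stem cells, Wnt and Notch 7 were higher, or 3 without wild-type ileum replicate 3 and 4 without control ileum replicate 3 or wild-type ileum replicate 1. Hopx was higher by 0.81 ± 0.155 and Lgr5, the stem cell receptor, by 0.66 ± 0.17, while Olfm4 was at 11.42 ± 0.07 against 11.33 ± 0.25.

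Many core histone genes were higher, while the share lower was close to that over all genes. Of 24 core histone genes 10 were higher (41.7%, beside 19.3% over all genes) and 2 lower (8.33%, beside 8.61%). H2bc3 was at 9.80, 9.31 and 9.11 against 7.77, 8.07 and 7.97 (1.47 ± 0.177, adjusted p = 5.18e-05), and H2ax, the variant marked at DNA breaks, was higher by 1.13 ± 0.163. H4c3 was lower by 1.24 ± 0.237. Histone genes are close copies of each other, so a signal can be shared between members.

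Secretory cell genes were mixed. Goblet cell genes had 4 of 18 higher (22.2%, beside 19.3% over all genes) and 3 lower (16.7%, beside 8.61%). Tff3, the trefoil peptide, was higher by 0.64 ± 0.114 and Zg16, a lectin of mucus, by 0.76 ± 0.128, while Spdef, the factor that matures goblet cells, was lower by 0.88 ± 0.119 and Gcnt3, a mucin glycosyltransferase, by 0.86 ± 0.143. Muc2, the gel-forming mucin, was at 12.46 ± 0.10 against 12.57 ± 0.07 and was not called. The 4 higher goblet genes became 2 without control ileum replicate 1 or wild-type ileum replicates 1 or 2. Of 12 Paneth cell genes 3 were higher (25.0%) and 1, Mptx1, was lower (8.33%). Only 1 was higher without control ileum replicate 2 or wild-type ileum replicate 2. In the full fit the 3 were Pnliprp2 (1.43 ± 0.329), Guca2b (0.89 ± 0.237) and Lyz1 (0.43 ± 0.145). The alpha defensin Defa39 is not in that list and was picked with its values known. It was at 10.98, 10.28 and 10.54 against 8.74, 8.54 and 9.60 (1.64 ± 0.396, 3.12-fold higher, adjusted p = 0.00688), though defensin genes are near copies. In the tuft cell list 0 of 10 were called in the limma fit, and 0 had an unadjusted p under 0.05.

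Mitochondrial, ribosomal and proteasome genes changed in both directions at once. In oxidative phosphorylation 23 of 66 were higher (34.8%, beside 19.3%) and 11 lower (16.7%, beside 8.61%). Cyc1, of complex III, was at 10.93, 10.54 and 10.92 against 9.41, 9.57 and 9.41 (1.33 ± 0.124, 2.52-fold higher, adjusted p = 5.3e-06), Ndufs4 was higher by 1.41, Cox6c by 1.16 and Cox8a by 1.11. Cox6a1 was at 10.47, 10.14 and 10.12 against 11.30, 11.11 and 11.45 (-1.04 ± 0.123, 2.06-fold lower, adjusted p = 4.45e-05), Ndufa1 was lower by 1.03, Ndufa4 by 1.02 and Sdhd by 0.91. Subunits of cytochrome oxidase (Cox6c and Cox8a against Cox6a1) and of complex I (Ndufs4 against Ndufa1) thus went opposite ways, and the arrays of the 2 groups did not overlap in any of these 5 genes. Ribosomal proteins had 13 of 47 higher (27.7%) and 8 lower (17.0%). Rps20 was higher by 1.48 ± 0.137 and Rps6 by 0.90 ± 0.103, and Rps29 was lower by 1.44 ± 0.108, Rps21 by 1.39 ± 0.155 and Rps12 by 1.05 ± 0.119. Of 47 proteasome genes 13 were higher (27.7%) and 12 lower (25.5%). Many of these genes have processed copies elsewhere in the genome, so their probes may read more than 1 gene. For Psmb3, Cyc1, Rps20, Rps29 and Cox6a1 the cKI ileum stood at 11.44, 10.92, 11.66, 10.39 and 10.22, close to the control means of 11.31, 10.80, 11.52, 10.25 and 10.24.

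Interferon-response genes were higher in control ileum, in unequal measure between its arrays. Of 27 tested 13 were higher and 0 lower (48.1%, beside 19.3%), and 27 differences were above 0. Ifit3, which binds RNA of viruses, was at 6.96, 9.14 and 5.91 against 5.23, 4.60 and 4.75 (2.48 ± 0.533, adjusted p = 0.00348), and Ifit1 at 7.86, 8.04 and 6.57 against 6.57, 5.49 and 5.43 (1.66 ± 0.374, 3.16-fold higher, adjusted p = 0.00459). Irf9, a part of the ISGF3 complex that switches these genes on, was at 7.14, 7.81 and 7.16 against 6.61, 6.24 and 6.29 (0.99 ± 0.163), and Ddx58, the RNA sensor RIG-I, was higher by 0.78 ± 0.164. Control ileum replicate 2 was the highest array of all 4 genes. The summed level of the list, as log2 of the summed linear values, was 11.85, 12.82 and 11.45 in control and 11.50, 11.07 and 11.21 in wild-type arrays, which overlap (exact two-sided permutation test, p = 0.2, where 3 against 3 arrays cannot go below 0.1). In the other groups the summed level was 11.04 to 11.56 in cKI ileum, 12.35 to 12.95 in wild-type jejunum and 11.82 to 12.34 in cKO jejunum. Without control ileum replicate 2 or wild-type ileum replicate 2 the list had 8 members higher, Ifit1, Ifit3, Irf9 and Ddx58 among them, and 7 in a fit of the 6 arrays alone.

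The promoters of Ifit1 and Ifit3 are shown because these genes rose together and because ISGF3 binds the interferon-stimulated response element. The motif searched was GAAA, any 2 bases and GAAA again, on both strands of the 250 bases before and 50 bases after the start site, and matches, here on the opposite strand, are in capitals. The 250 upstream bases are from RefSeq's GRCm38.p6, plus strand, chr19:34640639-34640888 for Ifit1 and chr19:34583279-34583528 for Ifit3:
Ifit1: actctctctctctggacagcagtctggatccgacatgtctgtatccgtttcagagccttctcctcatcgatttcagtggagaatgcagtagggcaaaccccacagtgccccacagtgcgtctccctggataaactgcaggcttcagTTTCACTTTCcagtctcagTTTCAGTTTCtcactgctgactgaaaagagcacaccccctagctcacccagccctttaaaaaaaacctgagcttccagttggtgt
Ifit3: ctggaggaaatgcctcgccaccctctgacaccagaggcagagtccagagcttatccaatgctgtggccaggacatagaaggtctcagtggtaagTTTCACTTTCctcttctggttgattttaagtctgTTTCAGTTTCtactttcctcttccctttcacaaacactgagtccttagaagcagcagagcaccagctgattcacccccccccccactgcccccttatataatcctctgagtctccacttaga
Each promoter held 2 matches. Of the interferon genes that were higher, 5 of the 9 with a promoter in the table held a match, and of those not called 7 of 10, beside 3.40% of the 9428 tested genes with a promoter. A match is a description of the sequence and no evidence of binding.

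Antigen presentation was higher in part. B2m, the light chain of MHC class I, was at 12.51, 12.70 and 12.44 against 11.67, 11.37 and 11.61 (1.00 ± 0.123, 2-fold higher, adjusted p = 5.83e-05), with no overlap. H2-DMa, which loads peptides on class II, was higher by 1.18 ± 0.192, H2-Aa, a class II chain, by 0.92 ± 0.204 and H2-Bl by 1.44 ± 0.332. Cd74, the invariant chain, was at 10.95 ± 0.28 against 10.76 ± 0.21. In the list 6 of 22 were higher (27.3%, beside 19.3% over all genes) and 1, the immunoproteasome subunit Psmb8, was lower (-0.65 ± 0.172, and not called without wild-type ileum replicate 2, adjusted p = 0.0503).

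Markers of cells outside the epithelium had their highest sums in control ileum replicate 2 for T, B and stromal cells, the array that was also highest in the interferon sum, while replicate 1 lay near wild-type arrays in these 3 sums. Of 11 tested T and NK lymphocyte genes 4 were higher (36.4%, beside 19.3% over all genes) and 0 lower. Their summed levels were 10.22, 11.14 and 10.71 in control and 10.17, 9.15 and 9.81 in wild-type arrays. Nkg7, of cytotoxic granules, was higher by 1.48 ± 0.356, and Ptprc, which all leukocytes carry, was not called (0.01 ± 0.289). The 4 became 1 without control ileum replicate 2 or wild-type ileum replicate 3, and 2 without control ileum replicate 3 or wild-type ileum replicate 2. Of 11 B and plasma cell genes 2 were higher (18.2%, beside 19.3% over all genes), or 7 without control ileum replicate 1, with summed levels of 8.94, 10.47 and 10.03 against 8.93, 8.95 and 9.43. In the full fit the 2 were Jchain and Ighm. Jchain, the joining chain of secreted antibody, was at 7.24, 9.14 and 7.79 against 5.91, 5.75 and 6.29 (2.07 ± 0.48, 4.2-fold higher, adjusted p = 0.00542). Ighm, an immunoglobulin constant region gene, was higher by 0.96 ± 0.271, while Igha (0.52 ± 0.439) and Cd79b (0.43 ± 0.304) were not called. Immunoglobulin variable segments are not in that list. Of 4 tested, Igkv9-120 and Igkv10-96 were higher by 2.16 ± 0.397 and 1.73 ± 0.388, and 2 were not called. Cd79a, of the B cell receptor, was at 3.5, 6.42 and 5.97 against 4.31, 5.01 and 5.74 and was called only without control ileum replicate 1 (adjusted p = 0.0178).

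Stromal genes behaved likewise. Of 20 tested 5 were higher and 2 lower, but 10 were higher without control ileum replicate 1, and 2 without control ileum replicate 2 or wild-type ileum replicate 2. Their summed levels were 10.25, 11.43 and 10.59 in control and 10.31, 10.03 and 10.28 in wild-type arrays. Vim, the intermediate filament of mesenchymal cells, was at 7.19, 8.41 and 7.68 against 6.17, 5.98 and 6.10 (1.68 ± 0.228, 3.2-fold higher, adjusted p = 0.000123), and Pdgfrb was higher by 0.61 ± 0.132. Col6a1 was lower by 0.43 ± 0.109. Col1a1 was at 6.0 ± 0.15 against 6.20 ± 0.14, and Acta2, of smooth muscle, ran from 6.45 to 9.02 in control arrays. Col1a1 and Acta2 were not called, though Acta2 was without control ileum replicate 1 (adjusted p = 0.00627). Of 11 myeloid and mast cell genes 2 were higher (18.2%, beside 19.3% over all genes) and 1 lower (9.09%, beside 8.61%). Without control ileum replicate 1, 4 were higher. In the full fit the members that were higher were Cd68, of macrophage lysosomes (1.02), and Mcpt1, and Cd14 was lower (-0.73 ± 0.173). Cst3, a protease inhibitor of many cell types and in no list, was among the largest rises, at 10.24, 10.31 and 9.25 against 7.76, 7.49 and 7.78 (2.26 ± 0.273, 4.78-fold higher, adjusted p = 5.23e-05). Control ileum replicate 2, the highest array in the lymphocyte, B cell and stromal sums, was also the lowest of Slc6a14 and Saa1. The part of other cells in these results was not tested.

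Several metabolic genes completed the rises. Clps, colipase, was at 10.42, 10.60 and 10.01 against 8.24, 8.27 and 8.90 (1.87 ± 0.206, 3.67-fold higher, adjusted p = 2.45e-05). Plb1, a phospholipase of the brush border, was higher by 2.30 ± 0.465, Fam151a by 2.21 ± 0.413, and Ugt2b36, a glucuronosyltransferase, by 1.82 ± 0.238. Slc15a2, a peptide transporter, was at 5.22, 5.18 and 5.04 against 2.93, 3.05 and 2.80 (2.22 ± 0.561), near the filter in control and below it in wild-type ileum. Its mean passed the filter in control ileum alone, so it could only be called higher. Of 35 drug metabolism genes 10 were higher (28.6%, beside 19.3% over all genes) and 0 lower, or 6 higher without control ileum replicate 2. Mcpt1, a mast cell protease, was among the largest rises, at 5.27, 5.70 and 8.92 against 3.73, 4.32 and 4.36 (2.5 ± 0.812), but the adjusted p was 0.0328, and leaving out control ileum replicate 3 gave 0.147. Leaving out wild-type ileum replicates 1, 2 or 3 gave 0.0932, 0.0656 and 0.0617.

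**Figure D5:**
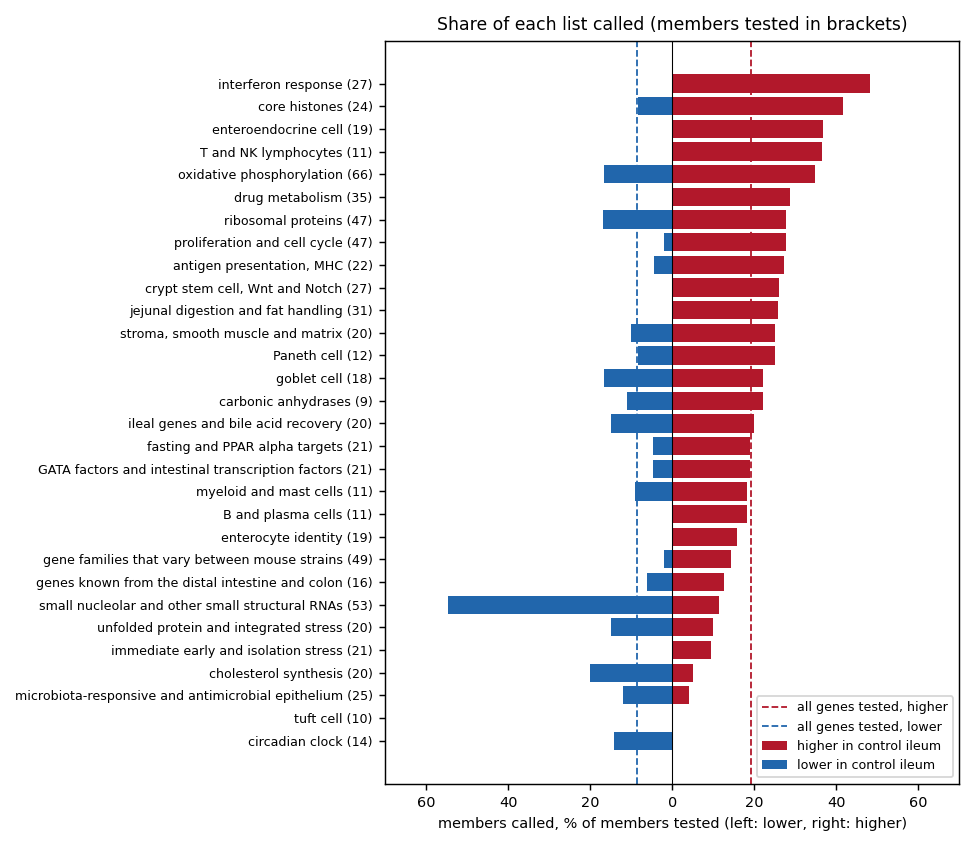
Share of the tested members of each list called higher (red, right) or lower (blue, left) in control ileum, in percent, for lists with at least 9 members tested, with dashed lines at 19.3% and 8.61% for all genes tested. Small structural RNAs reach 54.7% lower and interferon genes 48.1% higher, and both directions exceed the dashed lines for oxidative phosphorylation and ribosomal proteins.

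The remaining lists held few calls. Over all genes tested, 19.3% were higher and 8.61% lower. Cholesterol synthesis had 4 of 20 lower and 1 higher, or 2 lower without wild-type ileum replicate 1, with Pmvk, of the mevalonate pathway, lower by 0.96 ± 0.122. Among microbiota-responsive and antimicrobial genes 3 of 25 were lower and 1 higher. Saa1 was among the lower ones and Reg1 was the higher one. Reg3b, Reg3g and Duox2 were not called, each with its lowest array in control ileum replicate 2, though Reg3b was called without control ileum replicate 1 (adjusted p = 0.0256). The circadian clock had 2 of 14 lower, and Arntl and Dbp were at 7.63 ± 0.15 and 5.52 ± 0.26 in control against 7.59 ± 0.10 and 5.47 ± 0.20 in wild-type ileum. Fasting and PPAR alpha targets had 4 of 21 higher and 1 lower (3 lower without control ileum replicate 3), and gene families that vary between mouse strains had 7 of 49 higher and 1 lower (4 higher without wild-type ileum replicate 2). Of 21 immediate early and isolation stress genes 2 were higher and 0 lower, or 3 lower without control ileum replicate 2. After quantile normalization 1 was higher and 5 lower, and with arrays centred on their medians 1 was higher and 3 lower, so the direction of this list depends on the scaling. Where a list had 0 lower members in the limma fit, the members lower at an unadjusted p under 0.05 were 0 for interferon, jejunal, enteroendocrine, T cell and B cell genes, 1 for stem cell and enterocyte genes, 2 for drug metabolism and 5 for immediate early genes. Zfp36, which destabilises messages, was higher by 1.21 ± 0.217, and Pdia6, a chaperone of the endoplasmic reticulum, was lower by 1.00 ± 0.138. The unfolded protein list had 2 of 20 higher and 3 lower, carbonic anhydrases 2 of 9 higher and 1, Car1, lower, sex chromosome genes 1 of 6 higher, and pancreas and blood genes 1 of 2 higher (Clps) and 1 lower. Of the 2 endothelial and glial genes tested 0 were called, and 0 had an unadjusted p under 0.05.

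Some of the widest spreads lay inside a group, where the arrays of a gene split into high and low. In 20 of the genes tested the arrays of either ileum group spanned more than 3 log2 units (8-fold): 16 in control and 5 in wild-type ileum, with 1 gene in both, and 5 of the 20 were called. B4galnt2, a glycosyltransferase that makes the Sda blood group antigen, was at 5.22, 3.60 and 11.66 in wild-type ileum and at 11.63, 11.48 and 11.24 in control arrays. Its difference of 4.62 ± 1.72 was not called (adjusted p = 0.0576), but was called without wild-type ileum replicate 3 (adjusted p = 0.00257). Wild-type jejunum read 4.93, 4.99 and 11.42, so the high array bears the number 3 in both wild-type groups. Pla2g2a, a secreted phospholipase, was at 8.31, 12.86 and 8.73 in wild-type ileum and 7.73, 12.37 and 7.46 in wild-type jejunum, where array 2 was the high one, and at 9.09, 8.0 and 8.58 in control ileum.

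The control arrays split in other genes. St6galnac1, a sialyltransferase of mucins, was at 8.19, 7.62 and 3.74 in control ileum and 4.45, 4.39 and 4.35 in wild-type ileum, and the transcript BC018473 at 8.64, 8.16 and 3.79 against 3.98, 4.07 and 3.61. In cKI ileum they read 7.14, 7.61 and 3.56, and 8.52, 8.47 and 3.95, so that array 3 was the low one in both groups. Without control ileum replicate 3 both genes were called (adjusted p = 0.00748 and 0.00419). H2-Ea, an MHC class II chain, was high in control ileum replicate 3 alone, at 7.77 beside 4.39 and 3.91, and read from 3.57 to 3.88 in wild-type ileum, and it was called without control ileum replicate 2 (adjusted p = 0.0194). Retnlb, a goblet cell protein of worm defence, spanned 3.22 to 8.93 in control and 6.24 to 10.88 in wild-type ileum. These genes were chosen for their spread, so their values are a description, and no genotype of the animals is given in the sources used here.

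The cKO comparison shares no array with this one and gave a point of reference for its size. In cKO against wild-type jejunum 609 genes were higher and 901 lower (12.8% in all, 5.17% and 7.65%), beside 27.9% between the 2 ileum groups, which carry no named change. Gata4 was at 9.84 ± 0.11 in cKO and 9.53 ± 0.13 in wild-type jejunum, and where the probes lie relative to the deleted part is not given in the sources used here, so this level does not check the knockout. Of the 2275 genes higher in control ileum, 231 (10.2%) were lower in cKO jejunum, 25.6% of the genes lower there, and 110 (4.84%) were higher, 18.1% of the genes higher there. Of the 1015 genes lower in control ileum, 75 (7.39%) were higher in cKO jejunum and 64 (6.31%) lower. The overlaps carry no test.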

How the data were processed

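Log2 values of 35556 transcript clusters were deposited for 15 arrays; the authors used Partek, per the submitters' processing notes. Its version, background correction, normalization and summarization are not given in the sources used here. The log2 scale of the deposited values was taken from their range. Of the clusters 21789 carry 1 gene symbol, 1621 several and 12146 none in the platform annotation. They cover 19938 genes, and of the 999 genes with several clusters the one with the highest mean was used. Genes entered the tests if the highest of their 5 group means was above 4.908, the median of all values, which left 11784 of them, with 8154 not tested.

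The 15 arrays were fitted together with a mean for each group (10 residual degrees of freedom) in R 4.3.3 with limma 3.58.1 (lmFit, eBayes), two-sided, with Benjamini-Hochberg adjustment over all genes tested. A fold is given only where both ileum means exceed the filter. For arrays, their number limits the precision. On simulated data with 50 genes changed at each size, 54% were recovered at 1.5-fold, 88% at 2-fold and 100% at 4-fold and 8-fold, over 11822 genes, and 4.47% of calls were false. Arrays with the same replicate number in the 2 ileum groups did not deviate together (correlations of -0.103, -0.265 and -0.00722), so numbers were not treated as pairs. Tables and figures used Python, pandas and matplotlib.

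Genes were named by a rule: Terc, Cks2, Car1, Snord22, the GATA factors, enterocyte markers, the 15 largest rises and 15 largest falls, and up to 4 members of each of 33 lists by smallest p. Further snoRNAs, microRNA, Hox, regional, respiratory, proteasome and ribosomal genes, and genes of wide spread, were named after their values, and often their stability under the alternatives, were seen. The comparison, the members and the lists were chosen with earlier results of these data known. Promoters and microRNAs are RefSeq's (GRCm38.p6). Alternatives tried were other scalings, filters, cluster rules and variance models, array weights, a replicate block, the 6 arrays alone and each array left out.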

Additional observations from a re-analysis of the deposited data

Results flagged for a closer look

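Transcript clusters without exactly 1 gene symbol enter no gene count of the comparison, and signal that differed between the groups was found there too. Of 5699 tested clusters with no symbol in the annotation, 1179 were higher and 653 lower in control ileum (32.1%, limma with Benjamini-Hochberg adjustment over these clusters). Of 872 tested clusters with several symbols, 173 were higher and 137 lower (35.6%), beside 27.9% of the genes. With 3 arrays a group, no test for outlying arrays was run.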

How the results depend on the processing

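The counts of calls, and after quantile normalization also their majority direction, moved with the settings. Against 2275 genes higher and 1015 lower, the replicate block gave 1472 higher and 637 lower in the fit of the 6 arrays, quantile normalization gave 1634 higher and 1778 lower, and array weights gave 1616 lower. Centring each array on its median gave 58.6% of calls higher, beside 69.1% as deposited and 47.9% after quantile normalization. Leaving out each array in turn gave 1681 to 1951 higher and 744 to 886 lower genes, and 246 to 327 higher and 88 to 123 lower by at least 2-fold. All other alternatives stayed within 1.5 times these counts. In cKO against wild-type jejunum the lower count fell from 901 to 589 in the fit of the 6 arrays. For the 160 genes named, 2400 values were recomputed: 2345 stayed on their side of the threshold, 35 calls were lost, 20 were gained and 0 reversed. Many of these genes were named with their stability already known, so this share does not describe the calls at large: of all 3290 calls, 2015 were kept with the replicate block and 2647 after quantile normalization. With the replicate block Hoxb5, Foxa1, Lgr5, Slc51a and Slc26a3 were not called (adjusted p = 0.0759, 0.0543, 0.0541, 0.0525 and 0.0558), and Lct was called (adjusted p = 0.0291). In the same fit 6 interferon, 8 proliferation, 4 stem cell, 2 ileal, 2 transcription factor, 2 goblet, 1 Paneth, 2 T cell and 2 stromal genes were higher, and 0 clock genes were lower. Depth is limited by 3 arrays a group and by signal near the filter, where 283 genes tested lay below it in both ilea (16 called).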
